A study of Homo sapiens with 9 samples.

Results

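The genes described here carry the insulin signal from the receptor at the cell surface to the FOXO transcription factors: INSR, IRS1, IRS2, PIK3R1, PIK3CA, AKT1, AKT2, FOXO1 and FOXO3. Members were the probe sets that the platform's annotation assigns to a single listed symbol, whatever their values. This gave 28 probe sets of 8 genes among 54613 probe sets without controls. PIK3CA was not analysed here, and 3 probe sets assigned to FOXO3 together with another symbol were left out. RNA came from Huh7, a human hepatocarcinoma cell line, and was measured on 9 Affymetrix arrays in 3 groups of 3 biological replicates. The groups received scramble siRNA, siRNA against SPTLC1, SPTLC2 and SPTLC3 (SPTLC123 in the labels) or siRNA against DEGS1, each at 20 nM with a lipid reagent. All groups spent the last 24 h in medium with 1% serum and albumin. The labels name 72 h after siRNA, whereas the treatment protocol adds this medium at 72 h and harvests 24 h later. The labels name no insulin treatment. All cells are of 1 line, and no source used here says that transfections were done on separate days, so p-values measure the spread between these samples.

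Insulin binding switches on the tyrosine kinase of INSR, which phosphorylates the docking proteins IRS1 and IRS2. These recruit PI3-kinase, made of a regulatory subunit such as PIK3R1 and a catalytic subunit such as PIK3CA, and its lipid product brings AKT1 and AKT2 to the membrane. AKT phosphorylates FOXO1 and FOXO3 and so keeps them out of the nucleus, which in hepatocytes lowers the transcription of gluconeogenic genes. Ceramide is known to dampen this route at AKT, through the phosphatase PP2A and an atypical protein kinase C. Serine palmitoyltransferase, built of SPTLC subunits, opens ceramide synthesis, and the desaturase DEGS1 closes it. Most regulation of these proteins is by phosphorylation, which arrays do not measure.

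Promoters of 4 genes are shown first: FOXO3 and AKT1, the genes with a called difference, INSR, where the route starts, and IRS2, whose window holds the insulin response element. They are 250 bases that end just before the first annotated start of each gene, 5′ to 3′ on the gene's own strand, from RefSeq on GRCh38.p14. INSR lies at chr19:7294415-7294664 (minus strand), IRS2 at chr13:109786584-109786833 (minus), AKT1 at chr14:104795749-104795998 (minus) and FOXO3 at chr6:108559575-108559824 (plus). All 8 genes matched the table, and AKT1 and FOXO3 have 2 and 4 annotated starts. Capitals mark the GC box GGGCGG and, in IRS2, the insulin response element CAAAACAA, each searched on both strands.
INSR: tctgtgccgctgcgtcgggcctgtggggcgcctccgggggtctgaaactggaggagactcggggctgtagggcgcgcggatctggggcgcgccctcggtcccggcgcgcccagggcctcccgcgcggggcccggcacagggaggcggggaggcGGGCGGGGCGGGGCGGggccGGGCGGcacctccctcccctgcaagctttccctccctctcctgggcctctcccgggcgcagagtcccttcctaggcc
IRS2: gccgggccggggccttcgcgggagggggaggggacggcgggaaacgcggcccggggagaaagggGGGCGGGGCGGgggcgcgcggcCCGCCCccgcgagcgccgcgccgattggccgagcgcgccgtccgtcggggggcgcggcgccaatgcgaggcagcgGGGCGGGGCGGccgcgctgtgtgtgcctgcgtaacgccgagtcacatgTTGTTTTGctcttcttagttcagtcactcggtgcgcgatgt
AKT1: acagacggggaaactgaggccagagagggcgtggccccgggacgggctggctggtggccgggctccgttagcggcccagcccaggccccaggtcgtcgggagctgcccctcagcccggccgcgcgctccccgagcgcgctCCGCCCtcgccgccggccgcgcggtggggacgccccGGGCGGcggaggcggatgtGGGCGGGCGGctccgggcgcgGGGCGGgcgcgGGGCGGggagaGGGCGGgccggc
FOXO3: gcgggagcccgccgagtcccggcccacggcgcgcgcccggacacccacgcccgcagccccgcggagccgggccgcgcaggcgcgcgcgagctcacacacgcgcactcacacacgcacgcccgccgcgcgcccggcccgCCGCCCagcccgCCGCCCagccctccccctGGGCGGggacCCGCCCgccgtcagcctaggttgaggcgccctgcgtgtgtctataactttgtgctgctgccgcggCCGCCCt
AKT1 held 7 matches to the GC box, IRS2 and FOXO3 5 each, and INSR 4. Of 35116 starts searched the same way, 42.6% held at least 1 GC box. The IRS2 window held 1 match to CAAAACAA, which 1.46% of the starts had. The forkhead site GTAAACA, present at 2.98% of the starts, was found in none of the 4 windows. Matches describe letters and are not evidence of binding.

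Levels are log2 of the deposited normalized intensity, and differences are on the same log2 scale. Probe sets differ in brightness for the same amount of RNA, so levels are compared between arrays and not between genes. Each gene's leading probe set is the one with the highest mean over all arrays. Probe sets of 1 gene measure the same RNA samples and are not replicates. Which transcripts of the gene each one reads was not examined. Of the 28, 24 had a mean above the median of all probe sets (4.87). The exceptions were 1 probe set each of INSR and FOXO1 and 2 of AKT2, where background can compress differences, which was not tested. SPTLC1 fell to 20.7% and SPTLC2 to 48.4% of the scramble signal after SPTLC123 siRNA, and DEGS1 to 7.55% after its own siRNA. In each case every silenced array lay below every scramble array. SPTLC2 then read 4.87 to 5.22, close to that median, and SPTLC3 was not checked here. Of 9 hepatocyte markers, all lay above that median, led by AFP and ALB. Of 12 markers of other liver cells 7 did, LYZ the highest at 12.77, while PTPRC, CDH5 and LRAT lay between 2.98 and 3.54.

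A set of 3 arrays stood apart. The actin controls had a log2 signal at the 3' end that exceeded the 5' end by 1.15 to 1.31 in SPTLC123 replicate 3 and DEGS1 replicates 2 and 3, against 0.40 to 0.56 in the other 6 arrays. The GAPDH controls split the arrays alike, at 0.25 to 0.40 against -0.09 to 0.01. No scramble array was among the 3. For several members, results are given with and without them. For other genes of the pathway, the calls lost without them are summarised where the lists are introduced. Without them DEGS1 has a single array, whose spread is then taken from the remaining groups.

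Among 28 probe sets, 1 was called at an adjusted p under 0.05 in each comparison. FOXO3 fell after SPTLC123 siRNA, AKT1 rose after DEGS1 siRNA, and FOXO3 was higher after DEGS1 than after SPTLC123 siRNA. The share of all probe sets called was 4.52% for SPTLC123 against scramble, 3.42% for DEGS1 against scramble and 3.69% for DEGS1 against SPTLC123. A single call of 28 is near those shares. Before adjustment, p was under 0.05 for 7, 4 and 10 of the 28, against 16.2%, 19.4% and 17.7% of all probe sets. Groups did not overlap at 7, 5 and 9 of the 28 probe sets, against 22.4%, 21.3% and 19.8% of all probe sets. The median difference of the 28 was -0.03, 0.01 and 0.00, beside -0.02, 0.00 and 0.02 for all probe sets. With 1 leading probe set per gene and 19775 genes tested, 2, 4 and 2 of 8 genes were called, where 9.94%, 9.70% and 8.66% of all genes were.

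**Figure D1:**
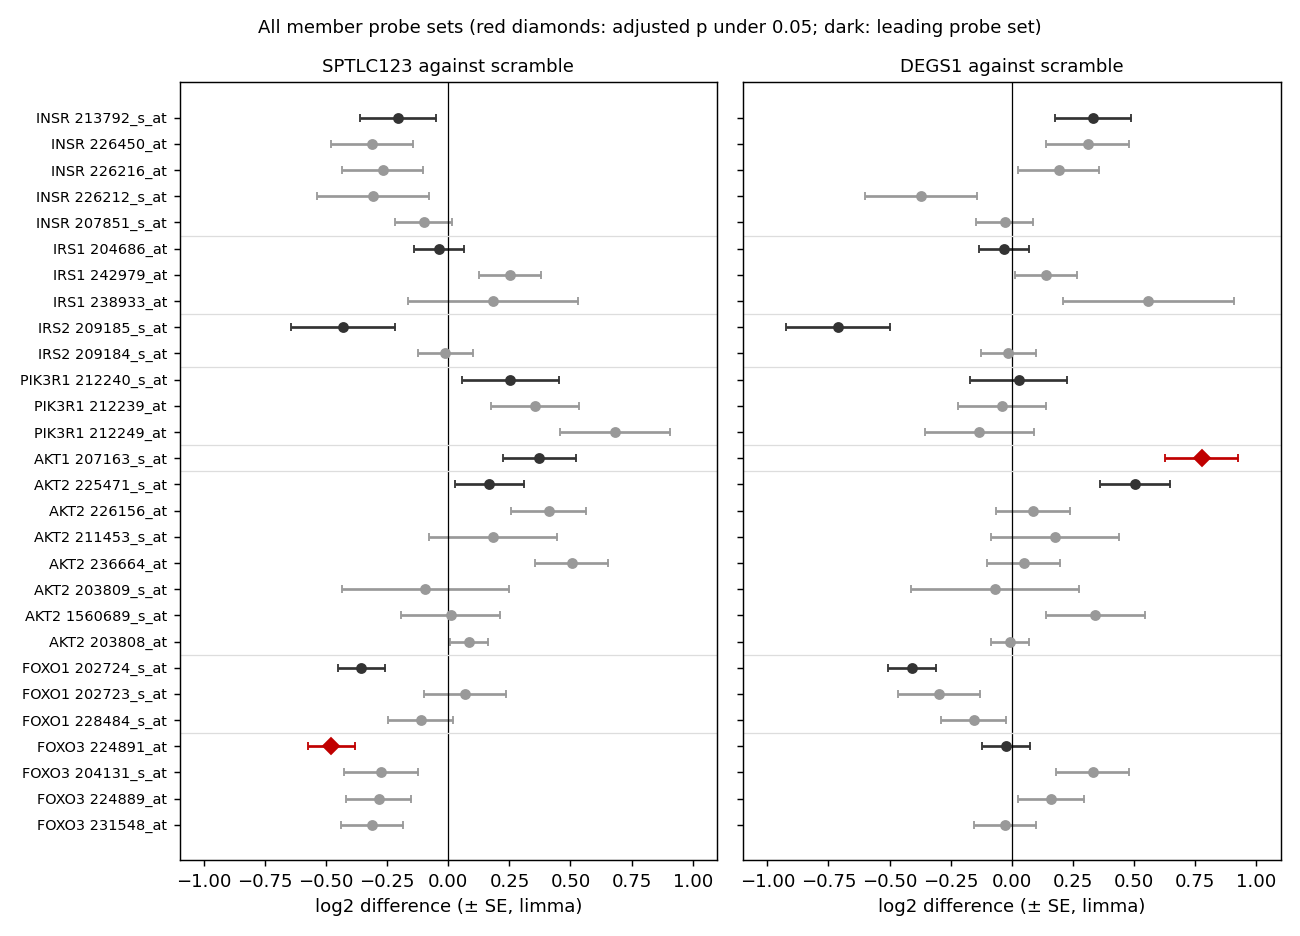
Log2 difference (± SE of the limma fit) of the 28 probe sets in SPTLC123 (left) and DEGS1 (right) siRNA against scramble, grouped by gene. Red diamonds passed an adjusted p of 0.05 over all probe sets, dark points are leading probe sets and grey points the others. The 2 diamonds are FOXO3 at -0.48 and AKT1 at 0.78. Many other SE bars also clear 0, which is not a call.

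INSR, the receptor, had no probe set past the threshold when all probe sets were tested. Its leading probe set read 8.59, 8.52 and 8.58 in scramble replicates 1 to 3, 8.08, 8.43 and 8.56 in SPTLC123, and 8.60, 9.07 and 9.03 in DEGS1. SPTLC123 overlapped scramble, whereas all DEGS1 arrays lay above all scramble arrays, replicate 1 by less than the scramble arrays differed among themselves. The difference from scramble was -0.21 ± 0.15 after SPTLC123 siRNA (adjusted p = 0.608) and 0.33 ± 0.15 after DEGS1 siRNA (adjusted p = 0.275). DEGS1 stood 0.54 ± 0.15 above SPTLC123, with no overlap (adjusted p = 0.104, and 0.0452 when tested over genes). All 5 INSR probe sets were lower after SPTLC123 siRNA than in scramble, by 0.10 to 0.31, and 0 of them passed. After DEGS1 siRNA 3 were higher and 2 lower. In the arrays of weak 5' signal, INSR probe sets differed from the other arrays of their group in 2 directions. In DEGS1 replicates 2 and 3 the leading probe set read 0.45 higher than in replicate 1, while 226212_s_at read lower (-0.80). In SPTLC123 replicate 3 these values were 0.30 and -0.51 against the other replicates. Without the 3 arrays the leading probe set differed by 0.03 between DEGS1 replicate 1 and scramble (adjusted p = 0.984). With the actin difference as a covariate, a second bright INSR probe set, 226450_at, was called lower in SPTLC123 (-0.42 ± 0.11, adjusted p = 0.0332) and higher in DEGS1 than in SPTLC123 (0.46 ± 0.11, adjusted p = 0.0316).

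IRS1, a docking protein for PI3-kinase, showed the smallest differences from scramble among the leading probe sets, apart from FOXO3 and PIK3R1 in DEGS1. Its leading probe set read 9.33, 9.38 and 9.39 in scramble, 9.38, 9.27 and 9.33 in SPTLC123 and 9.49, 9.38 and 9.13 in DEGS1. The 3 groups overlapped. SPTLC123 differed from scramble by -0.04, with a 95% confidence interval from -0.27 to 0.19, and DEGS1 by -0.03, with an interval from -0.26 to 0.20. The other pair of IRS1 probe sets had positive differences of 0.14 to 0.56 against scramble, none of which passed. One of them, 238933_at, read 1.02 higher in DEGS1 replicates 2 and 3 than in replicate 1 and 0.72 higher in SPTLC123 replicate 3 than in replicates 1 and 2.

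IRS2, the docking protein whose transcription in liver is known to be raised by FOXO and lowered by insulin, is the gene whose window above carries CAAAACAA. Its leading probe set read 8.37, 8.31 and 8.13 in scramble, 8.18, 7.82 and 7.52 in SPTLC123, and 7.88, 7.67 and 7.12 in DEGS1. All DEGS1 arrays lay below all scramble arrays, while SPTLC123 replicate 1 overlapped scramble. The difference was -0.71 ± 0.21 in DEGS1, leaving 61.1% of the signal (adjusted p = 0.113), and -0.43 ± 0.21 in SPTLC123 (adjusted p = 0.373). Tested over genes, the DEGS1 difference was called (adjusted p = 0.0467). The lowest arrays of each silenced group were arrays of weak 5' signal. Without those, the values were -0.39 ± 0.17 for DEGS1 (adjusted p = 0.521) and -0.27 ± 0.14 for SPTLC123 (adjusted p = 0.374). The other IRS2 probe set, 209184_s_at, differed from scramble by -0.01 in both groups, so the probe sets of IRS2 disagreed.

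PIK3R1, a regulatory subunit of PI3-kinase, had higher values in SPTLC123 than in either other group, without passing the test. The leading probe set read 8.68, 8.27 and 8.59 in scramble, 8.79, 8.40 and 9.12 in SPTLC123 and 8.31, 8.80 and 8.51 in DEGS1. These groups overlapped. The 3 PIK3R1 probe sets were 0.25 to 0.68 higher in SPTLC123 than in scramble and all 3 were lower in DEGS1 than in SPTLC123. The dimmest, 212249_at, read 5.98, 5.59 and 5.86 in scramble, 6.61, 5.95 and 6.91 in SPTLC123 and 5.48, 5.81 and 5.75 in DEGS1. All its SPTLC123 arrays lay above all DEGS1 arrays, a difference of -0.81 ± 0.22 for DEGS1 against SPTLC123 (adjusted p = 0.0918). With the actin covariate it was -0.97 ± 0.18 (adjusted p = 0.0110), and 212239_at was also called then (-0.54 ± 0.13, adjusted p = 0.0345). SPTLC123 replicate 3 was the highest array for all 3 probe sets.

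**Figure D2:**
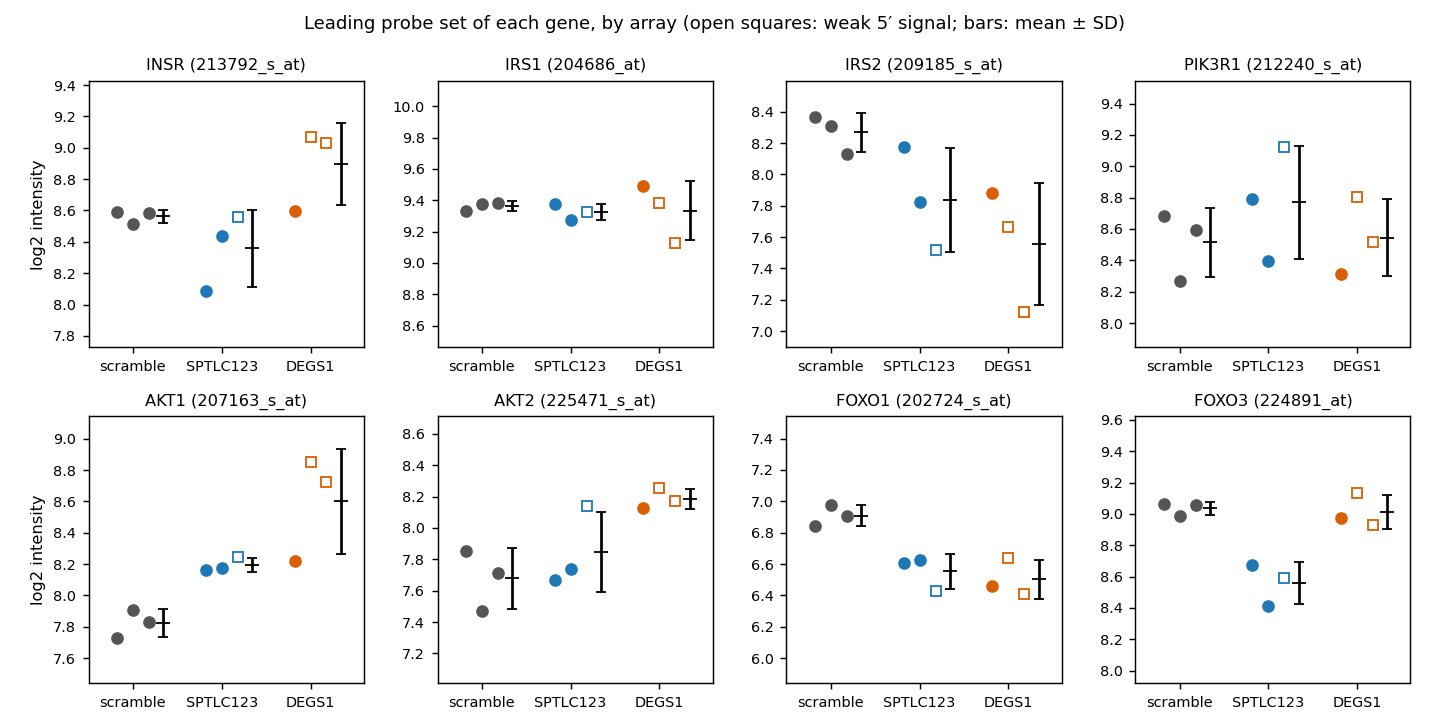
Log2 intensity of the leading probe set of each gene on every array; each panel spans the same range, filled circles and open squares are single arrays, open squares those of weak 5' signal, and black bars the mean ± SD of 3 arrays. FOXO3 is low in the 3 SPTLC123 arrays, AKT1 rises from scramble (7.73 to 7.91) to DEGS1 (8.22 to 8.85), and FOXO1 is below scramble in both silenced groups.

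AKT1, the kinase that most cell types express, was the member with the largest called difference. Its only probe set read 7.73, 7.91 and 7.83 in scramble, 8.16, 8.18 and 8.25 in SPTLC123, and 8.22, 8.85 and 8.73 in DEGS1. Every array of both silenced groups lay above every scramble array. DEGS1 exceeded scramble by 0.78 ± 0.15, or 171% of the scramble signal (adjusted p = 0.0277). SPTLC123 exceeded scramble by 0.37 ± 0.15, which did not pass (adjusted p = 0.253). DEGS1 and SPTLC123 overlapped, and their difference of 0.40 ± 0.15 did not pass either (adjusted p = 0.204). The high DEGS1 values were those of replicates 2 and 3, both of weak 5' signal, which read 0.57 above replicate 1. Without the 3 arrays, DEGS1 replicate 1 differed from scramble by 0.40 ± 0.13 (adjusted p = 0.339) and SPTLC123 by 0.35 ± 0.10 (adjusted p = 0.122). With the actin covariate the DEGS1 difference was 0.55 ± 0.12 (adjusted p = 0.0406). Of 6 fits that left out 1 array, the call held in 1, without DEGS1 replicate 1 (0.97, adjusted p = 0.00162). It ended without any 1 of the scramble arrays or of DEGS1 replicates 2 and 3, where the difference stayed positive and the adjusted p reached 0.124. Without DEGS1 replicate 1, AKT1 was also called higher in DEGS1 than in SPTLC123 (0.59, adjusted p = 0.00816), in a fit that called 13.1% of all probe sets.

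AKT2, the isoform tied most closely to insulin action in liver, had 7 probe sets that did not move as one. The leading probe set read 7.85, 7.47 and 7.72 in scramble, 7.67, 7.74 and 8.14 in SPTLC123, and 8.13, 8.25 and 8.17 in DEGS1. All DEGS1 arrays lay above all scramble arrays, by 0.50 ± 0.14 on average (adjusted p = 0.0962, and 0.0418 when tested over genes). DEGS1 replicate 1, with intact 5' signal, was the lowest of the DEGS1 arrays, 0.09 below the mean of the others, and without the 3 arrays the difference was 0.45 ± 0.17 (adjusted p = 0.415). In SPTLC123 the probe sets 226156_at and 236664_at did not overlap scramble, at 0.41 ± 0.15 (adjusted p = 0.208) and 0.50 ± 0.15 (adjusted p = 0.108). The others ranged from -0.09 to 0.18 there. The probe sets 211453_s_at and 203809_s_at read 5.72, 5.70, 5.10 and 5.04 in DEGS1 replicates 2 and 3, against 6.59 and 6.32 in replicate 1, so their DEGS1 mean hides a split between arrays.

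**Figure D3:**
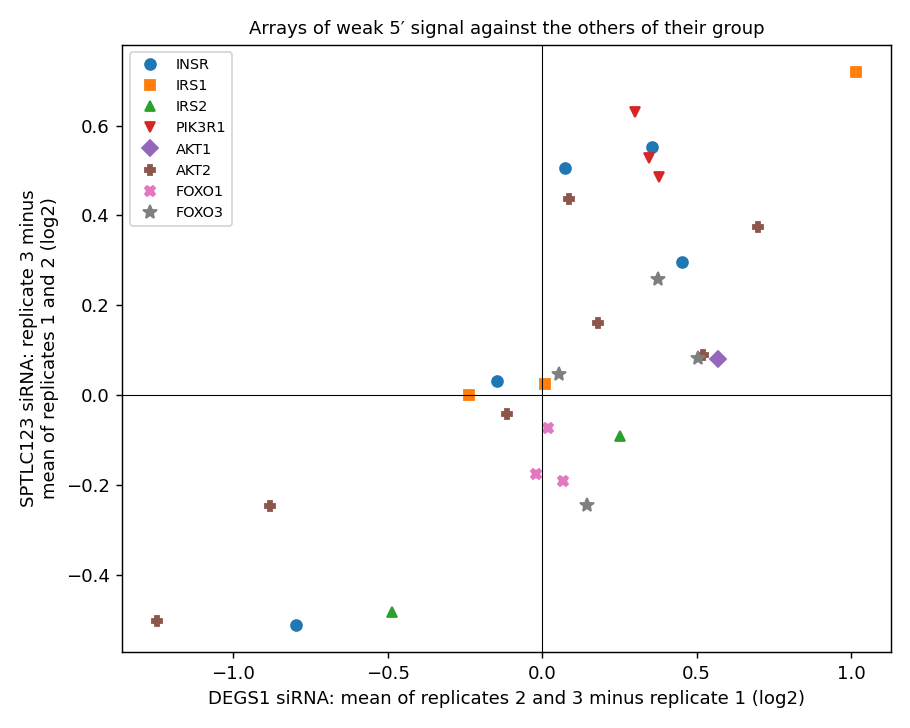
Each point is 1 of the 28 probe sets: its mean log2 level in DEGS1 replicates 2 and 3 minus replicate 1 (x axis) against its level in SPTLC123 replicate 3 minus the mean of replicates 1 and 2 (y axis), so both axes compare arrays of weak 5' signal with others of the same siRNA. The axes share a sign for 22 of 28 probe sets, and the leading FOXO3 probe set lies near 0 on both (0.05 and 0.05).

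The plot of arrays within groups compares the arrays of weak 5' signal with the others of the same siRNA. Of 28 probe sets 22 (78.6%) shared a sign on both axes, where 67.0% of all probe sets did. The size of the shift had a median of 0.32 in DEGS1 and 0.25 in SPTLC123, beside 0.17 and 0.16 for all probe sets. AKT2 203809_s_at had the lowest value in DEGS1 (-1.25, beside -0.50 in SPTLC123), and INSR 226212_s_at in SPTLC123 (-0.51). What the weak 5' signal itself contributed to the differences was not tested beyond the covariate and the fits without these arrays.

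FOXO1, the FOXO factor best known for gluconeogenesis, was lower in both silenced groups at its leading probe set. It read 6.84, 6.98 and 6.91 in scramble, 6.61, 6.63 and 6.43 in SPTLC123 and 6.46, 6.64 and 6.41 in DEGS1. Neither silenced group overlapped scramble, and the silenced groups overlapped each other. The difference was -0.36 ± 0.10 in SPTLC123, leaving 78.1% of the signal (adjusted p = 0.0811), and -0.41 ± 0.10 in DEGS1, leaving 75.4% (adjusted p = 0.0565). Tested over genes, both passed (adjusted p = 0.0434 and 0.0257). The comparisons share their scramble arrays and do not support each other. DEGS1 replicate 1 alone stood 0.45 below scramble (adjusted p = 0.246), so the difference was as large without the arrays of weak 5' signal, although it was not called. In SPTLC123 it was -0.29 without replicate 3 (adjusted p = 0.170). The second FOXO1 probe set, 202723_s_at, differed by 0.07 ± 0.17 in SPTLC123 and -0.30 ± 0.17 in DEGS1 (adjusted p = 0.911 and 0.362). The remaining one was dim, at 3.44 on average.

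FOXO3, a FOXO factor of stress resistance and autophagy, separated the silenced groups. The leading probe set read 9.06, 8.99 and 9.06 in scramble, 8.68, 8.41 and 8.59 in SPTLC123 and 8.98, 9.13 and 8.93 in DEGS1. All SPTLC123 arrays lay below all others, and DEGS1 overlapped scramble. SPTLC123 fell by 0.48 ± 0.10, to 71.8% of the scramble signal (adjusted p = 0.0255). DEGS1 differed from scramble by -0.02 ± 0.10 (adjusted p = 0.929) and from SPTLC123 by 0.46 ± 0.10 (adjusted p = 0.0369). These called comparisons share the SPTLC123 arrays. The other 3 probe sets had the same sign in each: 0.28 to 0.31 lower in SPTLC123 than in scramble and 0.28 to 0.61 higher in DEGS1 than in SPTLC123. Of these, 204131_s_at came nearest to the threshold, at 0.61 ± 0.15 for DEGS1 against SPTLC123 (adjusted p = 0.0629). It read 8.34, 8.04 and 8.18 in scramble, 7.91, 7.74 and 8.08 in SPTLC123 and 8.27, 8.79 and 8.50 in DEGS1.

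At the leading FOXO3 probe set, replicates with weak and intact 5' signal differed by 0.05 within each silenced group. At 204131_s_at and 224889_at the DEGS1 arrays of weak 5' signal read 0.38 and 0.50 above replicate 1, and SPTLC123 replicate 3 read 0.26 and 0.08 above the others. With the actin covariate the called differences of the leading FOXO3 probe set were -0.49 ± 0.10 (adjusted p = 0.0133) and 0.43 ± 0.11 (adjusted p = 0.0349). Without the 3 arrays they were -0.49 ± 0.11 and 0.43 ± 0.15, and neither was called. Of 6 fits without 1 array the SPTLC123 call held in 1, without SPTLC123 replicate 1 (adjusted p = 0.0455), and ended without any other array compared, with an adjusted p of up to 0.0871. The call against DEGS1 held in 1, without DEGS1 replicate 1 (adjusted p = 0.0278), and otherwise reached 0.149. In those fits the differences ranged from -0.54 to -0.40 and from 0.38 to 0.51. Hepatocyte markers moved beside FOXO3: their mean level was 12.88 to 12.97 in scramble, 12.48 to 12.59 in SPTLC123 and 12.79 to 12.83 in DEGS1, with TTR, APOA1 and TF called lower in SPTLC123. The 12 markers of other liver cells had means of 5.75 to 5.79, 5.77 to 5.90 and 5.67 to 5.79, with KRT19 called higher in SPTLC123 at 0.75 ± 0.17 at its leading probe set and of the other sign at the remaining one. Their part in the FOXO3 difference was not tested.

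**Figure D4:**
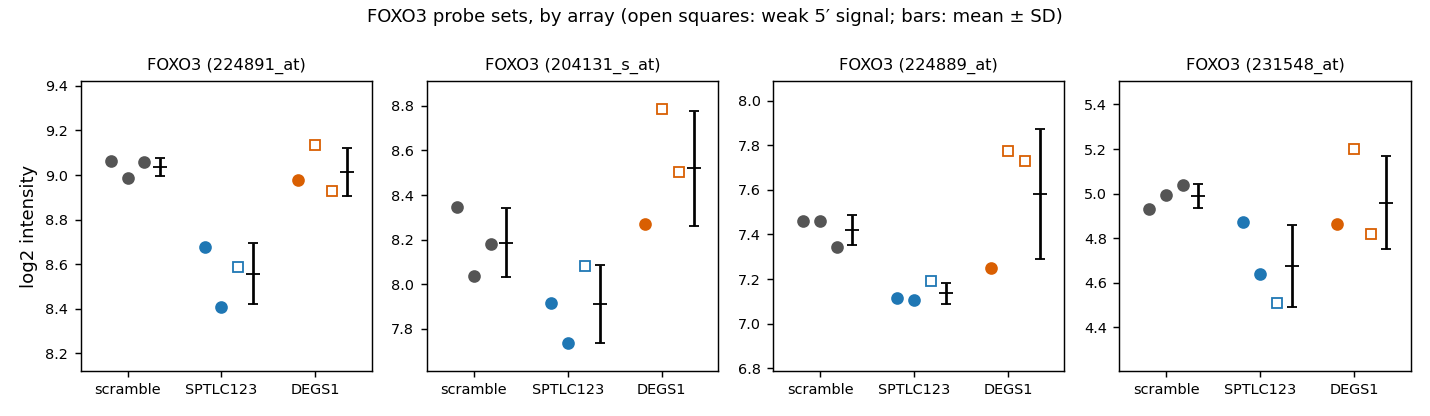
Log2 intensity of the 4 FOXO3 probe sets on every array, with panels of equal range; symbols as in the plot of leading probe sets, black bars the mean ± SD of 3 arrays. SPTLC123 has the lowest mean in each panel, and the DEGS1 mean exceeds that of scramble in the panels of 204131_s_at and 224889_at.

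The probe sets most like the leading FOXO3 one were sought among 23038 of other genes above the median level, by the root mean square difference over 9 arrays after centring. The closest belonged to ATP8B2 (0.06), a phospholipid flippase subunit, and ANXA5 (0.08), which binds phosphatidylserine. The zinc finger genes ZNF267 and ZNF212 and the Polycomb component RING1 followed, all at 0.08. All 5 were called lower in SPTLC123 than in scramble, by 0.43 to 0.54, which follows largely from choosing them by likeness. RING1 was not called in DEGS1 against SPTLC123 (limma adjusted p = 0.0557). Arrays of the same group share their siRNA and handling, so likeness across 9 arrays rests largely on 3 groups.

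Other genes of the pathway were taken in 6 lists of 87 genes, of which 80 were measured, each by its leading probe set. In SPTLC123 against scramble 10 rose and 3 fell (16.2%), beside 6.42% of the leading probe sets of all genes. In DEGS1 against scramble 7 rose and 4 fell (13.8%), beside 5.16%, and in DEGS1 against SPTLC123 2 were higher and 4 lower (7.50%), beside 5.37%. The lists were chosen with earlier results of these data known, and their levels were not matched to those of all genes. These shares are therefore not evidence that the pathway was called more often. Median differences were 0.01, 0.07 and -0.03, beside -0.03, -0.01 and 0.01 for all genes. Without the 3 arrays of weak 5' signal, 7 of the 13, 1 of the 11 and 0 of the 6 calls remained. The calls lost in DEGS1 against scramble kept their sign there, from 0.45 for PRKCI to 0.87 for PIK3R3 (adjusted p = 0.0676) among those higher and from -1.07 for BCL6 to -0.61 for ENPP1 among those lower. In SPTLC123 against scramble the calls of GRB10, SOCS1, PDPK1, PCK1, RPS6KB1 and RHEB were lost. They kept their sign, from 0.45 for SOCS1 to 1.04 for PCK1 among those higher. Those lower were RPS6KB1 at -0.53 and RHEB at -0.31. The share of all probe sets called, given at the end, fell little in SPTLC123 against scramble. It fell strongly in the comparisons with DEGS1, which then has a single array.

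Among 12 PI3-kinase subunits and kinases around AKT, 3 rose in SPTLC123 and 4 in DEGS1, and none fell. PIK3R3, another regulatory subunit of PI3-kinase, read 8.61, 8.43 and 8.65 in scramble, 9.45, 9.29 and 9.52 in SPTLC123, and 9.43, 9.36 and 9.34 in DEGS1. All arrays of both silenced groups lay well above scramble, at 0.86 ± 0.10 (adjusted p = 0.00165) and 0.81 ± 0.10 (adjusted p = 0.00372). MAPKAP1, a subunit of the mTORC2 complex that phosphorylates AKT, rose by 0.96 ± 0.09 and 1.13 ± 0.09 (adjusted p = 0.000767 and 0.000674). It was the call that remained in DEGS1 without the 3 arrays (1.19, adjusted p = 0.0182). Of its 3 other probe sets 2 were called, 1 of them in the opposite direction, in each comparison. PDPK1, which phosphorylates AKT in its activation loop, rose by 0.51 ± 0.09 and 0.61 ± 0.09 (adjusted p = 0.0178 and 0.0116), though only 2 and 3 of its 5 other probe sets shared the sign and none was called. PRKCI, an atypical protein kinase C, rose in DEGS1 by 0.60 ± 0.11 (adjusted p = 0.0210). Only 1 of its 2 other probe sets shared the sign, and none was called.

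Among 14 brakes of insulin signalling, 3 rose and 1 fell in SPTLC123, and 1 rose and 1 fell in DEGS1. ENPP1, a membrane phosphodiesterase that inhibits the receptor, read 8.72, 8.94 and 8.66 in scramble, 7.73, 7.75 and 7.96 in SPTLC123 and 8.16, 8.17 and 7.85 in DEGS1. It was lower in every silenced array, by -0.96 ± 0.12 (adjusted p = 0.00329) and -0.71 ± 0.12 (adjusted p = 0.0182), and its 3 other probe sets shared the sign. GRB10, an adaptor that binds and inhibits the receptor, rose by 0.75 ± 0.15 and 0.66 ± 0.15 (adjusted p = 0.0240 and 0.0492). Of its 3 other probe sets 1 shared the sign in SPTLC123 and 2 in DEGS1, and none was called. With the actin covariate its DEGS1 difference was 0.66 and no longer passed (adjusted p = 0.0791). PTPN1, the phosphatase that dephosphorylates INSR, rose by 0.80 ± 0.14 in SPTLC123 (adjusted p = 0.0158). SOCS1, a suppressor of cytokine signalling, rose by 0.45 ± 0.10 there (adjusted p = 0.0318). For both PTPN1 and SOCS1, 2 of 3 other probe sets shared the sign and none was called. PHLPP1, which dephosphorylates AKT, was lower in DEGS1 than in SPTLC123 by -0.56 ± 0.13 (adjusted p = 0.0459), with its other probe set of opposite sign.

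Among 14 substrates of AKT and members of the mTORC1 branch, 2 rose and 2 fell in SPTLC123 and none passed in DEGS1. TBC1D4, which restrains glucose transporter traffic until AKT phosphorylates it, read 8.11, 7.92 and 8.15 in scramble, 9.01, 8.90 and 9.01 in SPTLC123 and 8.37, 8.04 and 8.29 in DEGS1. SPTLC123 stood apart from both, by 0.92 ± 0.11 against scramble (adjusted p = 0.00224) and by -0.74 ± 0.11 for DEGS1 against SPTLC123 (adjusted p = 0.00772). RPS6KB1, the ribosomal S6 kinase, changed by -0.58 ± 0.11, and RHEB, the small GTPase that activates mTORC1, by -0.36 ± 0.08. RPTOR, a subunit of mTORC1, rose by 0.64 ± 0.14. Among 10 receptor adaptors none passed against scramble, and CRKL was higher in DEGS1 than in SPTLC123 by 0.54 ± 0.08 (adjusted p = 0.00792), with its other probe set of opposite sign.

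Among 21 genes known as transcribed under FOXO factors, 2 rose in SPTLC123 and 2 rose and 2 fell in DEGS1. PCK1, the gluconeogenic enzyme, read 4.79, 5.73 and 5.03 in scramble, 6.39, 6.06 and 6.08 in SPTLC123 and 5.04, 5.18 and 4.72 in DEGS1. All SPTLC123 arrays lay above all others, by 1.00 ± 0.23 against scramble (adjusted p = 0.0438) and by -1.20 ± 0.23 for DEGS1 against SPTLC123 (adjusted p = 0.0247). SESN3, a sestrin, rose by 0.75 ± 0.10 in SPTLC123 and 0.61 ± 0.10 in DEGS1, but in DEGS1 none of its 6 other probe sets shared the sign. ERBB3, a receptor of the EGF receptor family, rose by 0.76 ± 0.15 in DEGS1 and stood 1.16 ± 0.15 above SPTLC123 (adjusted p = 0.0325 and 0.00448). CITED2 and BCL6, both transcriptional regulators, fell in DEGS1 by 0.79 ± 0.16 and 0.85 ± 0.19. With the actin covariate, the differences from scramble of ERBB3 (0.53, adjusted p = 0.0530) and CITED2 (-0.66, adjusted p = 0.0849) no longer passed in DEGS1. That of ERBB3 against SPTLC123 still passed (1.03, adjusted p = 0.000503). Only 1 of the 2 other BCL6 probe sets shared the sign, and none was called. SELENOP, the hepatic selenium carrier, was lower in DEGS1 than in SPTLC123 by -0.39 ± 0.09 (adjusted p = 0.0476). G6PC1, PPARGC1A, PDK4 and FBXO32 had group means of 3.46 to 3.98 in this line, under the overall median of 4.87. Of 9 genes that insulin raises in liver, PKLR, pyruvate kinase, fell in DEGS1 by 0.66 ± 0.12 (adjusted p = 0.0215) and none passed in SPTLC123.

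**Figure D5:**
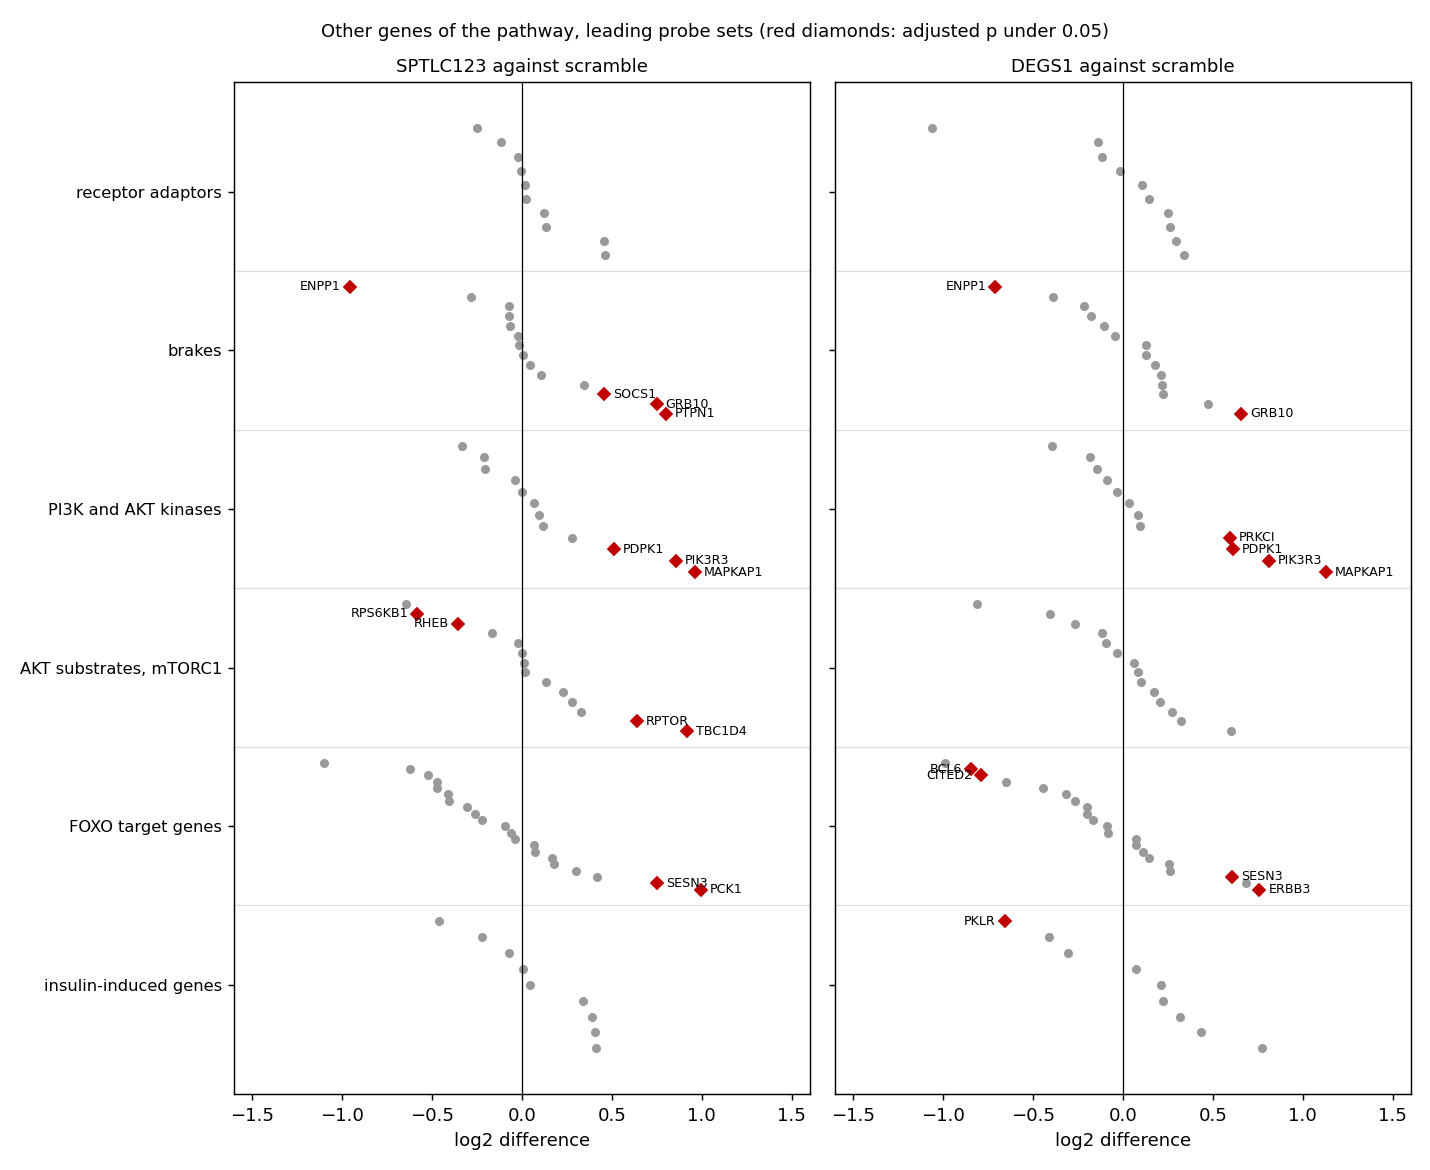
Log2 difference of the leading probe set of each of 80 genes in 6 lists, sorted within each list, for SPTLC123 (left) and DEGS1 (right) against scramble. Red diamonds with names passed an adjusted p of 0.05; MAPKAP1, PIK3R3 and PDPK1 lie to the right in both panels and ENPP1 to the left, whereas TBC1D4 and PCK1 are named on the left panel only.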

How the data were processed

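The authors deposited normalized intensity on a linear scale, 1 value per probe set and array, from 4.88 to 27330.6, with array medians from 27.92 to 30. RMA, GCRMA 2.12.1 and limma 2.14.7 are named in the submitters' processing notes. Which of RMA and GCRMA produced the deposited intensity is not given in the sources used here. Array data have no read depth, and 3 arrays per group limit the precision.

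Values were log2-transformed without an offset. For each of 54613 probe sets, limma 3.58.1 in R 4.3.3 (lmFit, eBayes) estimated 3 group means from 9 arrays, leaving 6 residual degrees of freedom. Tests were two-sided, with Benjamini-Hochberg adjustment over all probe sets. Values after ± are SE for differences and SD for levels. The fit was tested on simulated data.

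Members and lists were chosen with earlier results of these data known. From each list, up to 3 genes per comparison with the smallest adjusted p under 0.05 were to be named; SOCS1, PRKCI, RPTOR and BCL6 were added after their values were seen. Some genes of these lists were not analysed here. Alternatives were quantile normalization, median centring, a filter on dim probe sets, an offset of 16, 1 probe set per gene, a variance trend with robust fit, fits on the 2 groups compared, the replicate number as a block, the actin 3'/5' difference as a covariate, and fits without single arrays or the 3 arrays of weak 5' signal.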

Additional observations from a re-analysis of the deposited data

How the results depend on the processing

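Counts of calls are given in this order: SPTLC123 against scramble, then DEGS1 against scramble, then DEGS1 against SPTLC123. Over the 28 insulin route probe sets they were 1, 1 and 1. They became 2, 4 and 2 of 8 with 1 probe set per gene. An offset of 16 gave 2, 2 and 1, and dim probe sets left out gave 1, 2 and 2. Median centring gave 1, 1 and 0, fits on the 2 groups compared 1, 0 and 0, the actin covariate 3, 1 and 5, and fits without the 3 arrays of weak 5' signal 0, 0 and 0, where the share of all probe sets called was 4.08%, 0.353% and 0.624%. Leaving out single arrays gave 0 to 1, 0 to 7 and 0 to 7, the 7 without DEGS1 replicate 1. Over the 80 pathway genes, with 13, 11 and 6 calls, counts moved by over 1.5 times in these settings: 18 in DEGS1 with 1 probe set per gene, 5 in DEGS1 with the 2 groups compared, and 7, 1 and 0 without the 3 arrays. Leaving out single arrays gave 5 to 10, 3 to 19 and 3 to 8. The 3 called differences (FOXO3 in 2 comparisons, AKT1 in 1) kept their direction in all 48 alternative fits and their call in 25. The 81 uncalled ones were called in 32 of 1224 fits and changed sign in 92.

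The replicate number as a block gave 0, 2 and 0 calls of 28, with FOXO3 at adjusted p = 0.0585 and 0.0750, AKT1 at 0.0296 and IRS2 called at 0.0302. Deviations of same-numbered arrays correlated between -0.49 and 0.70. The highest was between SPTLC123 replicate 3 and DEGS1 replicate 3, both of weak 5' signal. SPTLC123 replicate 3 and DEGS1 replicate 2, also both of weak 5' signal, correlated at 0.60. The check therefore cannot decide whether same-numbered samples shared their handling.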
